A study of Mus musculus with 10 samples.

Results

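The 2 libraries labelled APRIL were compared with the 2 saline libraries, 4 of the 10 libraries in the series, across autosomal genes with at least 1 TPM (a relative abundance corrected for transcript length) in 2 or more of these 4. That rule kept 12713 of the 25506 autosomal genes listed. The cells carry the label primary white adipocytes and had been grown to confluence; their source was inguinal fat, digested, of C57BL/6 males aged 6 to 8 weeks. The treatment text speaks of adipose tissue and the sample labels of adipocytes. All were treated for 24 h, with saline as the control or with recombinant APRIL at 500 ng/ml. The other 6 libraries, 2 a group, had recombinant BAFF at 500 ng/ml, bacterial lipopolysaccharide (LPS) at 100 ng/ml or norepinephrine at 1 mM, and served to estimate the spread and to place the 4 libraries among the rest. Whether replicates stand for different animals or cultures is not in the labels, and p-values cover the spread among these libraries alone.

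APRIL is a secreted ligand of the TNF family, encoded by Tnfsf13. It binds the receptors TACI and BCMA, which pass their signal to NF-kB, and it attaches to the sugar chains of heparan sulfate proteoglycans. It is best known for keeping plasma cells alive, while cultured fat cells are studied mainly for lipid storage, hormone response and matrix production.

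The libraries labelled APRIL did not carry the transcripts that the label of male mice calls for. Transcripts of 4 Y-linked genes (Uty, Kdm5d, Eif2s3y and Ddx3y) added up to 0.489 and 0.775 TPM there, against at least 93.8 TPM in each of the other 8 libraries. Kdm6a, an X-linked histone demethylase gene and the partner of Uty, stood at 25.6 and 34.4 TPM in the APRIL-labelled pair against 5.69 and 5.55 TPM with saline (log2 fold change 2.21). Sample origin and ligand cannot be told apart in this design. Every difference below is one between the libraries labelled APRIL and saline and is not read as a response to the ligand; the words higher and lower refer to the libraries labelled APRIL. Summed TPM per library ran from 953553 to 964726, and 12845 to 13115 genes reached 1 TPM in each. Mitochondrially encoded genes took 19.5 and 22.4% of the listed TPM in the libraries labelled APRIL and 20.2 and 22.4% with saline. Read depth is unknown, as the values are TPM without counts.

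Adipocyte markers were present in all groups, though unevenly. Adipoq and Fabp4, which encode the defining adipocyte proteins adiponectin and the fatty acid carrier FABP4 and are named here outside the rule, were present in every library. Adipoq stood at 299.7 and 100.3 TPM in the APRIL-labelled pair and at 925 and 1062 TPM with saline, and Fabp4 at 3808 and 1792 TPM against 5452 and 6286 TPM. Leptin (Lep), a hormone of mature fat, stayed below 1 TPM in all 10 libraries.

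**Figure D1:**
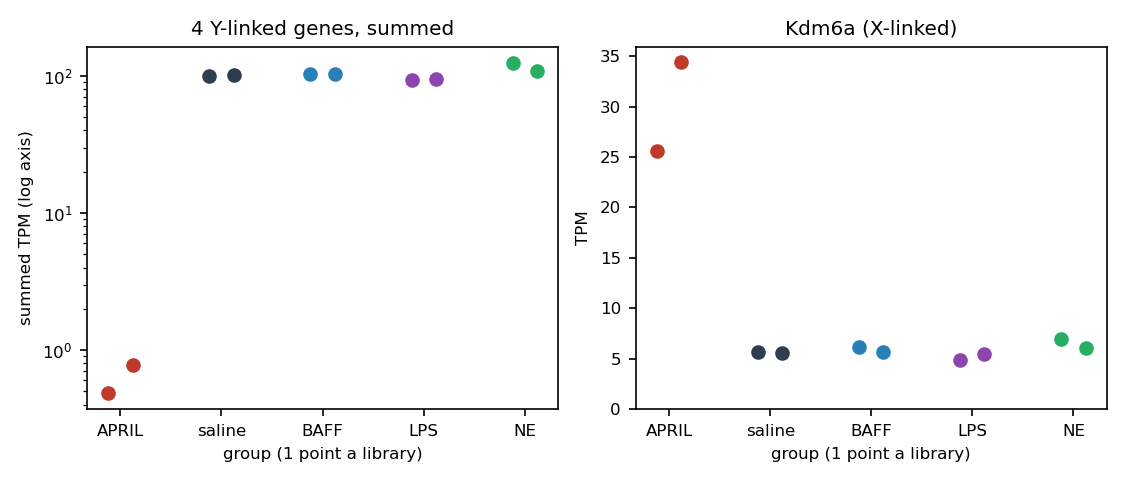
Y-linked and X-linked transcripts in each library. Left, the summed TPM of Ddx3y, Eif2s3y, Kdm5d and Uty on a log axis; right, the TPM of Kdm6a. Each point is 1 library, and NE is norepinephrine. The 2 libraries labelled APRIL lie below 1 TPM on the left, where all others exceed 93, and above 25 TPM on the right.

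The difference reached most of the measured genes. A log2 fold change here is the difference between groups in mean log2(TPM + 1), given with its standard error from limma; it understates the change of genes near or below 1 TPM. A gene passed at a Benjamini-Hochberg adjusted p under 0.05. By that rule 7778 genes passed (61.2% of those tested), 4523 higher (35.6%) and 3255 lower (25.6%). At so large a share, passing alone sets no gene apart. A stricter count, chosen after the values were seen, also asked for a 4-fold difference and left 434 genes higher (3.41%) and 276 lower (2.17%). Over all tested genes the log2 fold changes had a median of 0.11, with quartiles of -0.53 and 0.75, and 70.1% lay within 2-fold. Scaling the libraries by median ratios lowered that median by 0.116 and moved the share of higher calls from 58.2 to 51.0%. In bulk RNA fewer cells of a type and less RNA per cell cannot be told apart.

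Most of these genes also set the libraries labelled APRIL apart from the other treatments. The 8 other libraries and the 4 other groups counted here include saline, against which the genes had passed. Both libraries labelled APRIL lay above all 8 others for 4380 genes (34.5%) and below all 8 for 3274 (25.8%). Of the 7778 genes that passed against saline, 6911 lay beyond all 8 other libraries on the same side. Against the mean of the other 4 groups, 8751 genes (68.8%) passed, 4811 higher and 3940 lower.

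**Figure D2:**
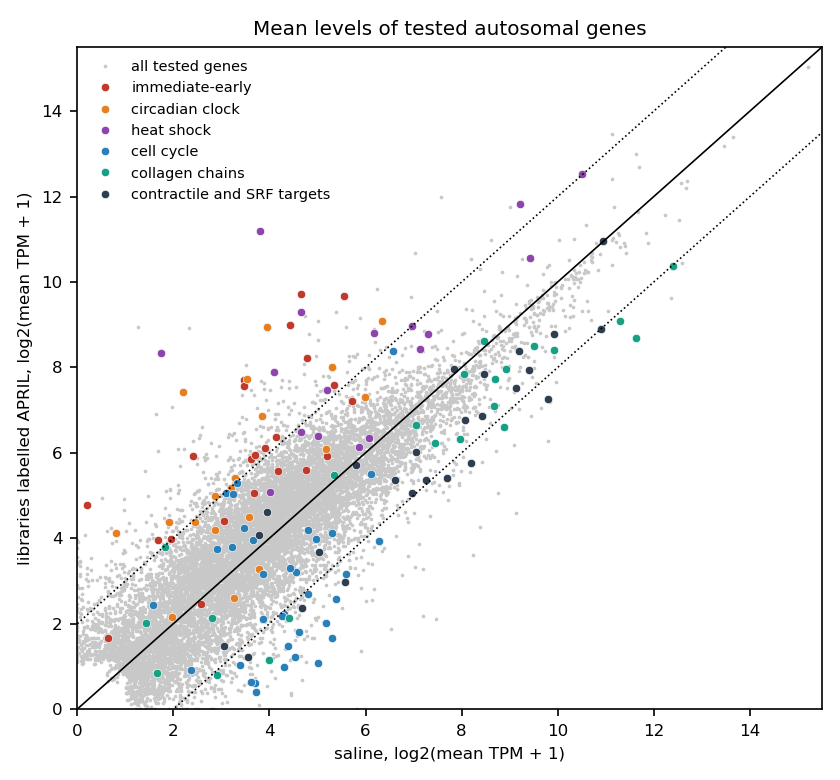
Mean level of each tested gene with saline (x axis) and in the libraries labelled APRIL (y axis), both as log2(mean TPM + 1). Grey points are all 12713 genes, colours mark 6 gene lists, the solid line marks equal levels and the dotted lines a difference of 2 on this scale. Immediate-early, clock and heat-shock genes lie mostly above the solid line, and cell cycle, collagen and contractile genes mostly below it.

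The APRIL and BAFF pathway itself was at the edge of detection. Of its 5 ligand and receptor genes only Tnfsf13b, which encodes BAFF, reached the level for testing, at 1.68 and 2.65 TPM in the APRIL-labelled pair against 3.201 and 2.73 TPM with saline, and it did not pass (limma adjusted p = 0.229). Tnfsf13, the gene of APRIL, was 0.771 and 0.0953 TPM against 1.25 and 0.484 TPM with saline, and the receptor genes Tnfrsf13b, Tnfrsf13c and Tnfrsf17 did not exceed 0.503 TPM in these 4 libraries. Heparan sulfate proteoglycans, the attachment sites of APRIL, were better represented, and 13 of 22 tested genes of their core proteins and enzymes were lower and 4 higher, with a median log2 fold change of -0.59. Hspg2, which encodes the basement membrane proteoglycan perlecan, stood at 26.5 and 16.2 TPM, against 122 and 109 TPM with saline (log2 fold change -2.41 ± 0.22, adjusted p = 7.53e-05). The cell-surface syndecans Sdc3 and Sdc4 were lower as well (log2 fold changes -1.72 and -1.42), and so was Ext2, a heparan sulfate polymerase (-0.71). The count of lower genes was 8 without saline replicate 2, and that of higher genes was 2 with either saline library left out.

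Immediate-early genes, the transcription factors and feedback regulators that cells switch on within minutes of a stimulus, formed the list with the highest median. Of 23 tested members 21 were higher, 15 of them at least 4-fold, and none was lower; the median log2 fold change was 2.25. Jun, a subunit of the AP-1 transcription factor, stood at 694 and 984 TPM, compared with 26.03 and 22.3 TPM in the saline libraries. Zfp36, whose protein speeds the decay of cytokine mRNAs, stood at 463 and 549 TPM in the APRIL-labelled pair against 21.5 and 19.8 TPM with saline. For both genes the libraries labelled APRIL were more than 10 times above the highest of the other 8, which reached 40.6 TPM for Jun and 36.8 TPM for Zfp36. The log2 fold changes were 5.04 ± 0.17 for Jun (adjusted p = 2.5e-06) and 4.54 ± 0.20 for Zfp36 (adjusted p = 5.78e-06). Egr1, a zinc-finger factor, was 222 and 191 TPM against 10.2 and 9.82 TPM with saline, and the growth regulator Myc was 277 and 322 TPM against 26.3 and 26.97 TPM. Dusp1, a phosphatase that turns off MAP kinases, and the orphan nuclear receptor Nr4a3 were higher by log2 fold changes of 4.08 and 4.53. Csrnp1, a nuclear protein outside the list, was higher by 4.30 and stood at 45.1 and 83.9 TPM.

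Circadian clock genes behaved almost as uniformly. The clock is a loop in which CLOCK and BMAL1 drive the genes of their own repressors, the PER, CRY and REV-ERB proteins. Of 19 tested members 16 were higher, 11 of them at least 4-fold, 1 was lower, and the median log2 fold change was 2.12. Nr1d1, which encodes REV-ERB alpha, stood at 404 and 586 TPM, against 15.2 and 13.9 TPM with saline (log2 fold change 4.97 ± 0.22, adjusted p = 6.13e-06). Ciart, a repressor of the loop, stood at 112 and 229.8 TPM, compared with 3.48 and 3.73 TPM in the saline libraries (log2 fold change 5.13 ± 0.31, adjusted p = 1.54e-05). In neither gene did the groups come near each other, since no other library exceeded 44.3 TPM for Nr1d1 or 5.25 TPM for Ciart. Per1, a core repressor, was 136 and 285 TPM against 12.4 and 8.64 TPM, Nr1d2 (REV-ERB beta) 118 and 111 against 13.2 and 13.6 TPM, and the repressor Bhlhe40 557 and 534 against 86.7 and 72.9 TPM. The list holds repressors and activators alike, and a single collection time gives no phase. Lower genes numbered 2 without APRIL replicate 1 and also without APRIL replicate 2.

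The cytosolic heat-shock list, chaperones that refold damaged proteins, held the largest difference among the named genes. Of 17 tested members 15 were higher, 7 at least 4-fold, none was lower, and the median log2 fold change was 1.99. Hspa1b, which encodes the inducible chaperone HSP70, stood at 953 and 3725 TPM in the APRIL-labelled pair against 14.7 and 11.2 TPM with saline (log2 fold change 7.09 ± 0.52, adjusted p = 2.87e-05). The 2 libraries labelled APRIL themselves differed widely: the log2 fold change was 8.07 without APRIL replicate 1 and 6.11 without APRIL replicate 2. Hspa1a is a near-identical copy of Hspa1b, so reads can be split between the genes, and another gene model overlaps it on the opposite strand. Summed, Hspa1a and Hspa1b stood at 1079 TPM in APRIL replicate 1 and 4240.0 TPM in APRIL replicate 2, against 17.6 and 12.9 TPM with saline. Hsph1, a partner of HSP70, stood at 303 and 963 TPM, against 22.5 and 25.7 TPM with saline, with log2 fold changes of 5.26 without APRIL replicate 1 and 3.60 without APRIL replicate 2. Hspa8, the constitutive HSP70, was already abundant with saline and stood at 5036 and 6734 TPM, compared with 1412 and 1502 TPM in the saline libraries (log2 fold change 1.999 ± 0.16), and the small heat-shock gene Hspb1 was higher by a log2 fold change of 2.62 ± 0.18. The proteasome, which degrades ubiquitin-tagged proteins, moved little: 10 of 30 tested subunit genes were higher, 1 was lower and none changed 4-fold. The share higher is near the background of 35.6%, and the count was 5 without APRIL replicate 1 and also without saline replicate 1; without APRIL replicate 1, 5 were lower.

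**Figure D3:**
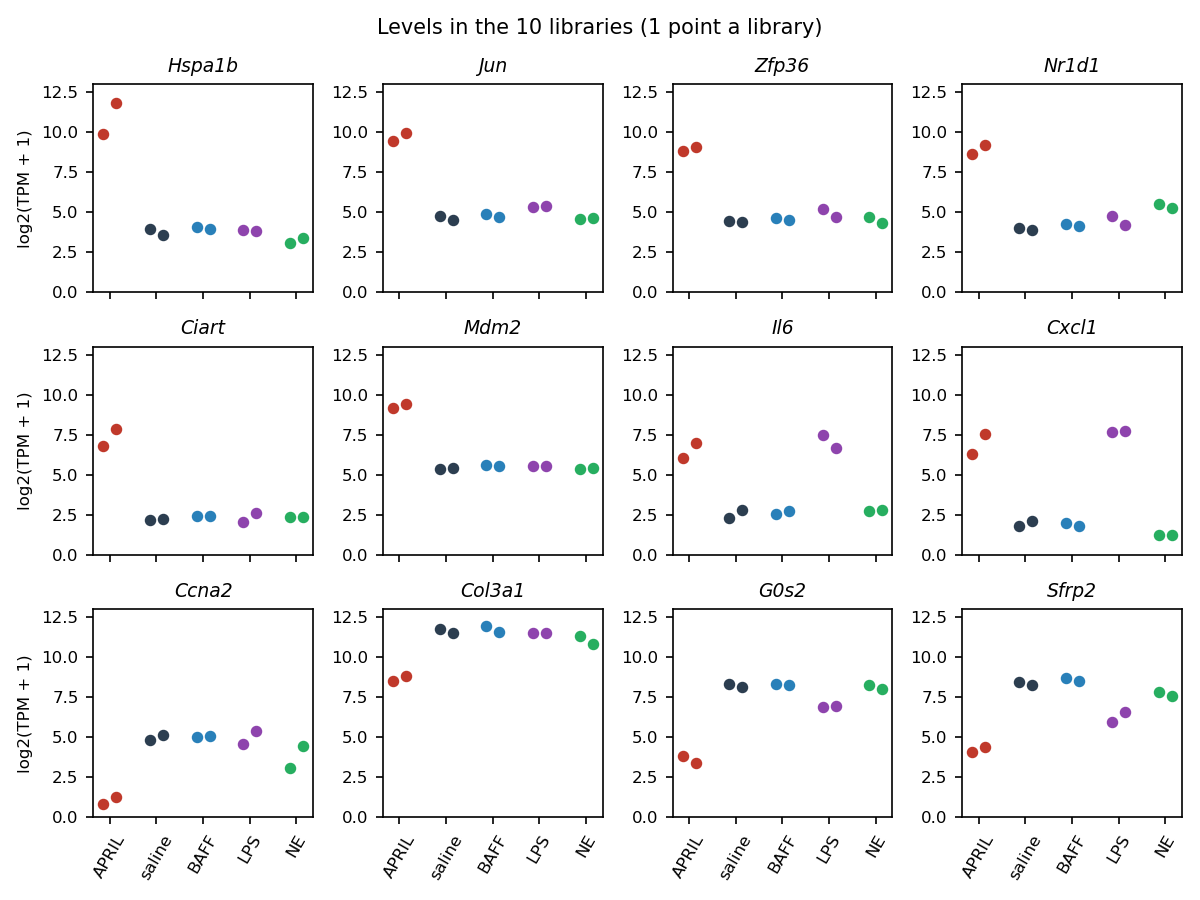
Levels of 12 genes in the 10 libraries as log2(TPM + 1), 1 panel a gene and 1 point a library, with NE for norepinephrine. In Hspa1b, Jun, Zfp36, Nr1d1, Ciart and Mdm2 the libraries labelled APRIL are the highest, in Il6 they overlap the LPS libraries, in Cxcl1 they lie just below those, and in Ccna2, Col3a1, G0s2 and Sfrp2 they are the lowest.

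Genes of the p53 response, which stops or kills damaged cells, were higher as a group: 16 of 19 tested, 9 at least 4-fold, with 1 lower and a median log2 fold change of 1.76. Gdf15, a stress-induced hormone, stood at 657 and 313 TPM in the APRIL-labelled pair against 4.40 and 3.68 TPM with saline (log2 fold change 6.50 ± 0.54, adjusted p = 4.97e-05). Mdm2, the ubiquitin ligase that degrades p53, stood at 577 and 682 TPM in the APRIL-labelled pair against 39.7 and 41.9 TPM with saline, while the other 8 libraries spanned only 39.7 to 48.5 TPM. Trp53inp1, a p53 cofactor, and the antiproliferative Btg2 were higher by log2 fold changes of 3.86 and 3.18, and Bbc3, which encodes the death factor PUMA, by 3.03. The sole lower member was not called with APRIL replicate 2 or either saline library left out.

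Of 23 tested NF-kB pathway genes, 17 were higher, 8 at least 4-fold, 1 was lower, and the median log2 fold change was 1.63. The NF-kB subunit Relb stood at 61.4 and 67.6 TPM, against 16.1 and 13.1 TPM with saline (log2 fold change 2.07 ± 0.13, adjusted p = 1.67e-05). Above all 8 other libraries, those with LPS included, lay 12 of the 23, against 34.5% of all tested genes. Traf2, an adaptor below TNF receptors, and the inhibitor Nfkbib were higher by log2 fold changes of 2.29 and 2.28, and the coactivator Bcl3 by 1.71. Nfkbia, the gene of the inhibitor that NF-kB itself switches on, is named here outside the rule and stood at 167 and 374 TPM, compared with 30.4 and 20.2 TPM in the saline libraries (log2 fold change 3.28 ± 0.38, adjusted p = 0.000216). The LPS libraries reached 177 TPM for Nfkbia and so overlapped the lower of the 2 values. The lower genes of the list were 2 without APRIL replicate 1.

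Cytokine and chemokine genes moved in both directions, in shares near the background: of 21 tested, 8 were higher (38.1%) and 6 lower (28.6%), with 5 and 3 at least 4-fold. Cxcl1, a neutrophil attractant, stood at 77.8 and 189 TPM in the APRIL-labelled pair against 2.56 and 3.26 TPM with saline, and Il6, an inflammatory cytokine, at 65.8 and 128 TPM, against 3.98 and 6.06 TPM with saline. The LPS libraries had 209 and 217 TPM of Cxcl1, above both libraries labelled APRIL, and 177 and 102 TPM of Il6, which overlapped them. The log2 fold change of Cxcl1 was 5.61 without APRIL replicate 1 and 4.34 without APRIL replicate 2. In the opposite direction, the chemokine Ccl9 stood at 7.89 and 9.61 TPM, compared with 129.8 and 160.4 TPM in the saline libraries, and Cxcl12, which retains blood progenitors, at 18.2 and 39.4 TPM in the APRIL-labelled pair against 208 and 208 TPM with saline; both lay below all 8 other libraries. Acute-phase and complement genes were lower in 16 of 22 and higher in none, with a median of -1.09, among them (log2 fold changes in brackets) the haemoglobin-binding Hp (-2.82) and the pattern-recognition gene Ptx3 (-2.42). Without APRIL replicate 2, 1 member was higher.

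Few interferon-stimulated genes passed. Of 27 tested, 3 were higher and 3 lower (11.1% each, below the background of 35.6 and 25.6%), and the median log2 fold change of 0.08 turned to -0.04 with median-ratio scaling. Leaving out libraries moved that median further, to 0.32 without APRIL replicate 1, -0.31 without APRIL replicate 2, and 0.21 and -0.05 without the first and second saline library. The number higher was 1 without APRIL replicate 2 and also without saline replicate 2. Irf1, a transcription factor of both interferon and NF-kB responses, was the exception among the named members, at 504 and 672 TPM, against 27.9 and 23.8 TPM with saline (log2 fold change 4.44 ± 0.15, adjusted p = 2.41e-06). Ifitm3 and Ifi27, typical interferon targets, were lower, with log2 fold changes of -1.24 and -0.65. MHC class I genes had 3 of 13 higher and 1 lower, with a median of 0.06 that changed sign under that scaling and also without APRIL replicate 1 (-0.08) or saline replicate 2 (-0.07); 5 were lower without APRIL replicate 1. With no library left out, the class I list had 23.1% higher and 7.69% lower, below the background in both directions. The heavy-chain genes H2-D1 (1.39) and H2-K1 (0.87) and the peptide transporter Tap1 (1.22) were higher, with log2 fold changes in brackets. The 1 lower member was Psmb8 (-0.94), which lay below all 8 other libraries. H2-K1 stood at 817 and 677 TPM in the APRIL-labelled pair, below the LPS libraries with 1590 and 1266 TPM. For H2-D1 the APRIL-labelled pair overlapped the LPS libraries.

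Promoters are shown for 5 genes of lists that moved together, picked after the values were seen. They are RefSeq sequences of the build GRCm38.p6, up to 250 bases before the annotated start, cut short where a GENCODE M21 exon begins and searched on both strands. Capitals mark the heat-shock element pair (GAANNTTC or TTCNNGAA) in Hspa1b, the E-box CACGTG bound by CLOCK and BMAL1 in Ciart, the CRE TGACGTCA with an E-box in Dusp1, the NF-kB motif in Nfkbia and the CArG box of the serum response factor in Vcl.
Hspa1b, chr17:34959239-34959488, minus strand: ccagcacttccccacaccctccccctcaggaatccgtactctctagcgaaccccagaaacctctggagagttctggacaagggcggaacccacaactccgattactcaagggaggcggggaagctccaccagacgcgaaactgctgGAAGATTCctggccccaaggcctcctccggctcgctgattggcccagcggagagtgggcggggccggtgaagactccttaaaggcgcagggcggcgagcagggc
Ciart, chr3:95882252-95882478, minus strand: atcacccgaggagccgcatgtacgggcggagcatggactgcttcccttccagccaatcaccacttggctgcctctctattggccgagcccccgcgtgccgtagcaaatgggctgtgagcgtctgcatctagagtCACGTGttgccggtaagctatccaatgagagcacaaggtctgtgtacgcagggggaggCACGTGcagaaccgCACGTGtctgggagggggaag
Dusp1, chr17:26508520-26508722, minus strand: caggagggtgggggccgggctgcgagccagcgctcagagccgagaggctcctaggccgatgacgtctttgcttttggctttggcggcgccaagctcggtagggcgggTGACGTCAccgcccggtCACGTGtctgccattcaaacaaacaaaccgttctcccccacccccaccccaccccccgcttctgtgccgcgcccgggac
Nfkbia, chr12:55492648-55492897, minus strand: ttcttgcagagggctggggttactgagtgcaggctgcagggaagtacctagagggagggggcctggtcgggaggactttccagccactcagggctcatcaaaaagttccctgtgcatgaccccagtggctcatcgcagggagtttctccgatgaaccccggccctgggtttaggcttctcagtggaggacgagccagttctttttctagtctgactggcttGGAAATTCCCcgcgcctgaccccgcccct
Vcl, chr14:20929148-20929397, plus strand: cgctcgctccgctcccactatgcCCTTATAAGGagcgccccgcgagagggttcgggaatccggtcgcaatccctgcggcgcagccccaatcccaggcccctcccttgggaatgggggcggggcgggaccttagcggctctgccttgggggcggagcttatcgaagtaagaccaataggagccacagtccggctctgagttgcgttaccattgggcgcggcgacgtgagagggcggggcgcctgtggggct
Ciart holds 3 E-boxes, which begin at positions -116, -58 and -44 from the start. The Dusp1 CRE begins at -143 and the NF-kB motif of Nfkbia at -29.

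These letters were counted in the full 250-base windows of 32851 RefSeq starts. The heat-shock element pair was in 9 of 18 windows of the heat-shock list and in 12.8% of all windows. An E-box was in 6 of 21 clock windows and in 6.02% of all, and the NF-kB motif in 10 of 26 NF-kB windows and in 3.90% of all. The CArG box was in 5 of 25 immediate-early windows, from 2 genes, in 7 of 25 windows of the contractile list and in 1.47% of all. The CRE was in 2 of 25 immediate-early windows and in 1.55% of all. A CHR (TTTGAA or TTCAAA), a common element of cell cycle promoters, was in 8 of 30 windows of the cell cycle list and in 15.99% of all. The lists were drawn up by function, partly from known targets, so these shares describe the promoters and test nothing. Windows of 1 gene overlap where it has several starts. The CArG box was present in lists of opposite direction, the immediate-early genes with 21 members higher and the contractile genes with 20 lower.

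Oxidative and protein-folding stress genes showed a mixed pattern. Of 20 NRF2 targets and metallothioneins 9 were higher and 2 lower. Hmox1, which degrades haem, stood at 5609.9 and 2521 TPM, compared with 226 and 151 TPM in the saline libraries (log2 fold change 4.34 ± 0.54, adjusted p = 0.000296). Nfe2l2, the gene of NRF2 itself, was 301 TPM in both libraries labelled APRIL and 54.4 and 52.9 TPM with saline, and the glutathione synthesis gene Gclc was 74.3 and 43.2 against 7.63 and 8.48 TPM. Gstm2, a glutathione transferase, was lower, with a log2 fold change of -1.30. The list depended on the library: 14 were higher without APRIL replicate 2, and 6 were lower without APRIL replicate 1. The unfolded protein response, with the integrated stress response, had 8 of 30 genes higher (26.7%) and 6 lower (20%). Both shares were below the background of 35.6 and 25.6%. The median log2 fold change of 0.18 was 0.29 without APRIL replicate 1 and 0.08 without APRIL replicate 2. The members named next were picked by lowest p, and all were higher. Ddit3, a factor of stress-induced death also called CHOP, stood at 773 and 837 TPM in the APRIL-labelled pair against 134 and 112 TPM with saline, and Ppp1r15a, which restores translation after stress, at 263 and 346 TPM, against 35.1 and 25.9 TPM with saline. The pseudokinase Trib3 and the sestrin Sesn2 were higher by log2 fold changes of 1.495 and 1.74.

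Cell cycle genes were the list with the lowest median, -1.73. Of 35 tested, 25 were lower, 17 at least 4-fold, and 6 were higher. Ccna2, the cyclin of S phase and mitosis, stood at 0.795 and 1.42 TPM, compared with 27.5 and 34.7 TPM in the saline libraries (log2 fold change -3.94 ± 0.44, adjusted p = 0.000186), below every other library, where the lowest had 7.38 TPM. Ccnd1, the cyclin that starts G1, stood at 1.36 and 1.31 TPM in the APRIL-labelled pair against 25.6 and 18.8 TPM with saline. Ccnd1 overlaps another listed gene, and the sums of both were 7.49 and 10.6 TPM against 41.2 and 32.5 TPM, a smaller ratio. Aurkb, a mitotic kinase, was lower, with a log2 fold change of -2.07. Ccne1, the cyclin of the G1 to S transition, went the other way, at 37.9 and 38.8 TPM, against 7.91 and 10.2 TPM with saline.

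Most matrix genes were lower. Of 22 collagen chains 16 were lower, 7 at least 4-fold, and 2 were higher, with a median of -1.11. Col3a1, a fibrillar collagen, stood at 363 and 462 TPM, compared with 3466 and 2887 TPM in the saline libraries (log2 fold change -2.95 ± 0.22, adjusted p = 3.08e-05). Col1a2 and Col5a1, partners in collagen fibrils, were lower (log2 fold changes -2.20 and -2.27), and so was Col8a1, a short-chain collagen (-2.83). The higher chains were 2 only without saline replicate 2 among the sets of 3 libraries, and otherwise 1. Of 31 proteoglycans and glycoproteins 22 were lower, 12 at least 4-fold, and 2 were higher, with a median of -1.39. Fbn1, the main microfibril protein, stood at 38.4 and 38.1 TPM in the APRIL-labelled pair against 249 and 241 TPM with saline, the libraries labelled APRIL being nearly equal. Cilp, a matrix protein first described in cartilage, Mfap2 of microfibrils and the collagen-binding Fmod were lower, with log2 fold changes of -3.15, -2.69 and -2.40.

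Matrix-remodelling genes followed in part. Of 28 proteases and inhibitors 17 were lower and 4 higher, with 10 lower without APRIL replicate 1 and also without saline replicate 1. Mmp9, a gelatinase, stood at 5.39 and 1.73 TPM, against 159 and 134 TPM with saline (log2 fold change -5.14 ± 0.66, adjusted p = 0.000361), with a log2 fold change of -5.75 without APRIL replicate 1 and -4.52 without APRIL replicate 2. Adamts1, a protease that cleaves proteoglycans, was higher, at 169 and 132 TPM, compared with 35.7 and 28.4 TPM in the saline libraries. Outside the lists, Wfdc21, a secreted protein with a protease-inhibitor fold, stood at 4.596 and 1.98 TPM in the APRIL-labelled pair against 181 and 169 TPM with saline (log2 fold change -5.43 ± 0.30). The gene of the leucine-rich repeat protein Lrrc17 stood at 1.54 and 1.59 TPM, against 48.9 and 69.4 TPM with saline, while the lowest of the other 8 libraries had 4.07 TPM.

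The contractile list, actin-binding and smooth-muscle proteins driven by the serum response factor SRF, was lower in 20 of 25 and higher in none, with a median of -1.47. Without APRIL replicate 2, 1 member was higher. Acta2, smooth-muscle actin, stood at 115 and 189.8 TPM, compared with 839 and 932 TPM in the saline libraries (log2 fold change -2.57 ± 0.25, adjusted p = 9.85e-05). Cnn3 and Csrp1, which bind actin filaments, were lower (log2 fold changes -1.92 and -1.91), and so was Vcl, which encodes the focal adhesion protein vinculin (-1.27). Vcl overlaps another listed gene, and their sums were 60.7 and 52.6 TPM against 137 and 137 TPM. Tuba1a, a tubulin gene of the cytoskeleton outside the list, stood at 23.8 and 22.4 TPM in the APRIL-labelled pair against 573 and 543 TPM with saline; with its 7 near-identical copies the sums were 273 and 223 TPM against 1842 and 1840.0 TPM.

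Genes of secreted signals moved in both directions. Among 28 genes of TGF-beta, activin and BMP signalling 9 were higher, near the background share, and 11 lower, the latter 7 without saline replicate 1. Smad7, the feedback inhibitor of TGF-beta, stood at 151 and 176 TPM, against 8.47 and 10.9 TPM with saline (log2 fold change 3.95 ± 0.15, adjusted p = 3.1e-06), and Id2, a BMP target, at 137 and 147 TPM, compared with 16.8 and 17.2 TPM in the saline libraries. Tgfb3, a ligand, and Tgfbi, a secreted target, were lower, with log2 fold changes of -1.82 and -2.36. Of 16 Wnt ligands, antagonists and targets 10 were lower and 3 higher. Both secreted antagonists Sfrp1 and Sfrp2 were far lower, Sfrp2 at 15.8 and 20.3 TPM in the APRIL-labelled pair against 358 and 309 TPM with saline, and Sfrp1 at 33.7 and 30.6 TPM, against 374 and 483 TPM with saline. Axin2, a feedback target of Wnt signalling, was higher, at 20.1 and 14.3 TPM, compared with 1.64 and 0.973 TPM in the saline libraries, while the Wnt receptor Fzd2 stood at 0.501 and 0.724 TPM in the APRIL-labelled pair against 26.2 and 22.97 TPM with saline. Dio3, which inactivates thyroid hormone, was lower (log2 fold change -4.06 ± 0.14) and did not exceed 0.339 TPM in the libraries labelled APRIL.

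Adipocyte genes were lower on balance, with exceptions among the regulators. Of 23 identity genes 12 were lower and 3 higher, with a median log2 fold change of -0.98 that was -1.70 without APRIL replicate 1 and -0.46 without APRIL replicate 2. Pparg, the master regulator of fat cells, stood at 313 and 177 TPM, against 80.7 and 88.5 TPM with saline, and Cebpb, an early differentiation factor, at 462 and 247 TPM, compared with 92.1 and 78.5 TPM in the saline libraries, both higher than in any other library. The secreted adipsin gene Cfd stood at 113 and 30.2 TPM in the APRIL-labelled pair against 496 and 585 TPM with saline, and Car3, an abundant adipocyte enzyme, at 121 and 31.9 TPM, against 860.0 and 905 TPM with saline. Car3 overlapped the LPS libraries, the lowest of which had 34.4 TPM. These differences varied with the library: the log2 fold change of Cfd was -4.11 without APRIL replicate 1 and -2.24 without APRIL replicate 2, and that of Car3 -4.75 and -2.86. The lower count of the list was 19 without APRIL replicate 1 and 7 without saline replicate 2.

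In the lists of lipid handling more genes were lower than higher. Of 21 lipolysis and lipid droplet genes 8 were lower, above the background share of 25.6%, and 4 higher, below that of 35.6%. G0s2, an inhibitor of the lipase ATGL, stood at 13.1 and 9.41 TPM, compared with 316 and 282 TPM in the saline libraries (log2 fold change -4.63 ± 0.15, adjusted p = 2.41e-06), and Adrb3, the adrenergic receptor of fat cells, at 12.4 and 5.66 TPM in the APRIL-labelled pair against 119 and 141 TPM with saline. Plin2, the droplet coat of non-adipocytes and young adipocytes, was higher at 2239 and 1773 TPM, against 407 and 368 TPM with saline, and Plin4, a coat of mature adipocytes, lower (log2 fold change -2.56). The list's median was -0.77, but -1.40 without APRIL replicate 1 and 0.14 without APRIL replicate 2, and its lower count was 14 without APRIL replicate 1 and 4 without saline replicate 2, while its higher count was 2 without the latter. Of 21 fatty acid and triglyceride synthesis genes 12 were lower and 1 higher, the latter 3 without APRIL replicate 2. Fasn, fatty acid synthase, stood at 79.3 and 29.4 TPM, compared with 338 and 347 TPM in the saline libraries, with a log2 fold change of -3.50 without APRIL replicate 1 and -2.10 without APRIL replicate 2. Thrsp, a lipogenic factor, was lower (log2 fold change -2.70) but overlapped other groups, while Elovl6, a fatty acid elongase, was lower than in any other library (-1.84). Of 20 cholesterol genes 12 were lower and 3 higher, with a log2 fold change of -2.18 for the isoprenoid isomerase Idi1, whereas the sterol enzyme Hsd17b7 was higher (1.33).

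Thermogenic genes, which mark heat-producing fat cells, pointed upwards at low levels. Of 10 tested genes 7 were higher and 1 lower, the latter 2 without APRIL replicate 1. Ppargc1a, the coactivator of mitochondrial genes, stood at 20.9 and 18.2 TPM in the APRIL-labelled pair against 0.873 and 1.32 TPM with saline (log2 fold change 3.30 ± 0.19, adjusted p = 1.35e-05). Cidea, a droplet protein of brown fat, stood at 27.7 and 7.77 TPM, against 0.587 and 0.665 TPM with saline, with a log2 fold change of 2.43 without APRIL replicate 1 and 4.14 without APRIL replicate 2. The log2 fold change of the hormone gene Fgf21 was 1.62 and 2.87 and that of the coactivator Ppargc1b 1.79 and 2.98 without the same libraries. The norepinephrine libraries had 15.1 and 7.71 TPM of Cidea and so overlapped the libraries labelled APRIL. Of the 10 tested thermogenic genes, 3 lay above all 8 other libraries, near the share of 34.5% over all tested genes. Fatty acid oxidation had 4 of 21 genes higher and 4 lower, and leaving out single libraries moved these counts: 13 were lower without APRIL replicate 1 and 2 without APRIL replicate 2, and without saline replicate 1 or 2 the higher genes numbered 2 and the lower 2 and 1. With no library left out, the shares of fatty acid oxidation genes were below the background of 35.6% higher and 25.6% lower in both directions. The median of the list was -0.27, with -0.66 and 0.11 without the first and second library labelled APRIL and -0.13 without saline replicate 2. Pdk4, which shifts fuel use from glucose to fat, was higher at 297 and 62.1 TPM, compared with 12.4 and 15.1 TPM in the saline libraries. Its log2 fold change was 2.10 without APRIL replicate 1 and 4.34 without APRIL replicate 2. The norepinephrine libraries, with 144 and 125 TPM of Pdk4, lay between the 2 libraries labelled APRIL. Cpt1a, the gate of fatty acid import into mitochondria, was higher at 37.3 and 43.1 TPM against 13.6 and 12.4 TPM with saline.

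Most genes of glucose use were lower, with the first enzyme of glycolysis as an exception. Of 25 glycolysis and hypoxia genes 19 were lower and 2 higher, with a median of -0.98. Hk2, the hexokinase that traps glucose, stood at 175 and 187 TPM, against 17.9 and 22.3 TPM with saline, whereas Slc16a3, the lactate exporter, stood at 12.3 and 9.59 TPM, compared with 123 and 112 TPM in the saline libraries. Lactate dehydrogenase Ldha and the kinase Pdk1 were lower, with log2 fold changes of -1.35 and -2.57. Gapdh was listed at only 117 and 66.8 TPM with saline and 3.84 and 1.501 TPM in the libraries labelled APRIL, low for an abundant glycolytic enzyme with many processed copies, so its value is uncertain. Of 23 insulin and glucose uptake genes 6 were higher (26.1%, below the background of 35.6%) and 10 lower (43.5%, above that of 25.6%). Irs2, an insulin receptor adaptor, stood at 65.4 and 46.2 TPM in the APRIL-labelled pair against 5.16 and 5.402 TPM with saline, and the growth factor Igf1 and the binding protein Igfbp4 were lower, with log2 fold changes of -1.54 and -2.71. Slc16a6, a monocarboxylate transporter, stood at 109.6 and 129.6 TPM, against 2.18 and 2.01 TPM with saline, although it overlaps the gene Amz2, and the sums of both were 194 and 206 TPM against 33.8 and 38.9 TPM, a smaller ratio. Rragd, a GTPase that signals amino acids to mTORC1, was higher by a log2 fold change of 4.44 and stood at 31.1 and 28.3 TPM.

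Housekeeping lists had small median differences. Of the tested ribosomal protein genes 43.2% were lower, above the background of 25.6%, and none was higher, against a background of 35.6%. Cytosolic ribosomal proteins had 19 of 44 lower, none higher and a median of -0.25, with log2 fold changes of -0.61 for Rpl3 and -0.62 for Rps23; the lower count was 12 without APRIL replicate 1, and 6 and 10 without the first and second saline library. Many ribosomal protein genes have near-identical copies, which can share reads. Nuclear-encoded respiratory chain genes had 8 of 37 lower (21.6%, below the background of 25.6%), none higher and a median of -0.18. Here the 2 libraries labelled APRIL disagreed: 30 were lower without APRIL replicate 1, and 12 were higher without APRIL replicate 2. Without saline replicate 1 or 2 the lower counts were 4 and 5, and the median was -0.58 without APRIL replicate 1 and 0.13 without APRIL replicate 2.

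Positional genes include the Hox genes, whose activity follows the body axis and can persist in culture. Whether the values below reflect where cells came from was not tested. Of 26 tested Hox genes 15 were lower and none higher, with 1 higher without APRIL replicate 1, and the median was -0.80. Hoxc8 stood at 3.14 and 3.798 TPM, compared with 20.2 and 20.9 TPM in the saline libraries (log2 fold change -2.27 ± 0.13, adjusted p = 1.29e-05), and Hoxc9 at 2.77 and 2.53 TPM in the APRIL-labelled pair against 7.62 and 8.43 TPM with saline. Hoxb7, Hoxb8 and Hoxb9 were lower, with log2 fold changes of -1.46, -1.49 and -1.55. Hoxb5, Hoxb6 and Hoxc6 were lower too, with log2 fold changes of -0.88, -1.03 and -0.90. Other members did not pass, among them Hoxa4 at 1.27 and 1.22 against 1.05 and 1.56 TPM. Hoxb2, at 4.19 and 5.29 against 6.07 and 4.81 TPM, and Hoxa9, at 10.3 and 7.32 against 8.92 and 11.01 TPM, did not pass either. Neither did Hoxc13, with a log2 fold change of 0.005. Hoxa7, 1 of the 15 lower genes, was 3.24 and 3.22 against 6.34 and 6.90 TPM with saline (log2 fold change -0.85). It overlaps another listed gene, and the sums were 6.97 and 7.04 TPM against 7.57 and 8.66 TPM, a smaller ratio. Of 32 other positional and developmental factors 8 were higher and 13 lower, the latter 8 without saline replicate 2, and the median of -0.20 was -0.43 without APRIL replicate 1, 0.05 without APRIL replicate 2 and -0.08 without saline replicate 2. At 25%, the share of these factors higher was below the background of 35.6%. Tbx2, a T-box factor, stood at 8.45 and 6.71 TPM, against 0.447 and 0.551 TPM with saline. The mesenchymal factors Twist1, Prrx1 and Shox2 were lower, with log2 fold changes of -1.69, -1.27 and -1.15.

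**Figure D4:**
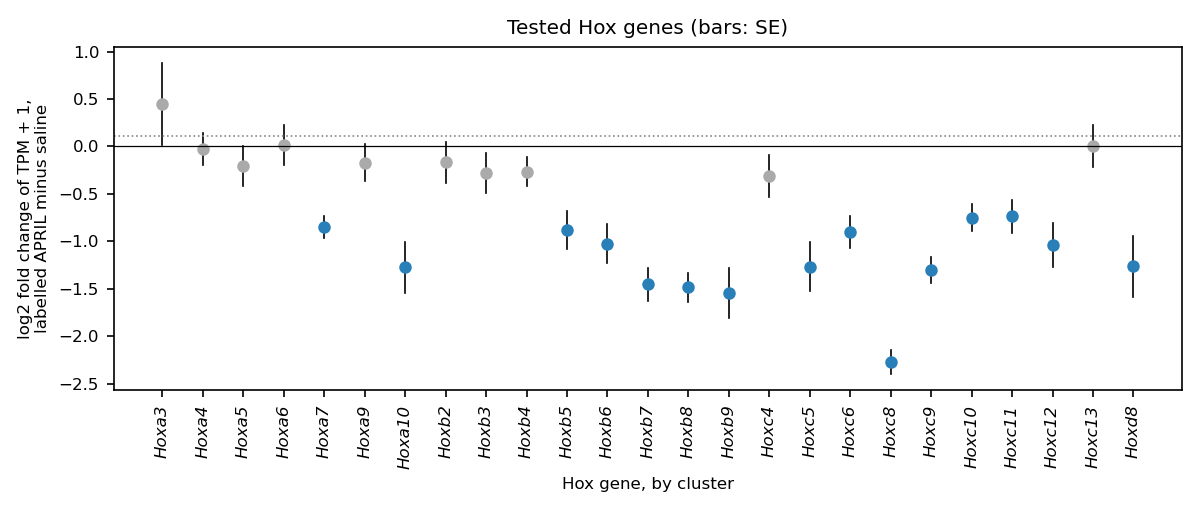
Log2 fold change of TPM + 1 (libraries labelled APRIL minus saline) for 25 of the 26 tested Hox genes, in order of cluster and number. Points are estimates and bars their SE from limma; blue points passed at an adjusted p under 0.05 and grey points did not, the solid line marks 0 and the dotted line the median of all tested genes, 0.11. The 15 blue points are all below 0, with Hoxc8 the lowest.

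Markers of other cell types were read as measured levels. Preadipocyte and fibroblast markers had 9 of 17 lower and 3 higher, the latter 1 with either saline library left out, and their summed level was 2222 and 2488 TPM against 6545 and 5945 TPM with saline, where Col3a1 contributed the most. Cd34, a progenitor marker, was 0.345 and 0.342 against 2.56 and 2.94 TPM, and Thy1 did not pass (limma adjusted p = 0.0516). Smooth muscle and pericyte markers had 9 of 12 lower and 1 higher, a call that was lost with APRIL replicate 2 or either saline library left out, and they summed to 526 and 784 TPM against 1618 and 1730 TPM. Endothelial markers had 5 of 9 lower and none higher, 3 without saline replicate 2, and summed to 34.2 and 62.5 TPM against 72.2 and 75.7 TPM; Cdh5, an endothelial cadherin, was 0.765 and 1.09 against 4.22 and 5.42 TPM. Pecam1, an adhesion molecule, was 0.888 and 2.75 against 4.57 and 6.86 TPM and did not pass without saline replicate 2.

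Fewer immune markers passed, which does not mean that they differed less. The median log2 fold change of the macrophage markers was -0.57, against -0.64 for the preadipocyte and fibroblast markers. None of 18 macrophage markers passed in either direction by limma (before adjustment 1 was higher at p under 0.05 and 0 were lower), and they summed to 1642 and 1232 TPM against 2295 and 978 TPM with saline; the 2 saline libraries were themselves uneven, with C1qa at 47.8 and 10.9 TPM. That sum was higher in replicate 1 than in replicate 2 in all 5 groups, and with a block on the replicate number 5 of the 18 were lower and 1 higher. Without saline replicate 1, 1 macrophage marker was higher. T and NK markers had 1 of 5 higher, the co-receptor Cd4, and 1 lower, the T cell receptor gene Trac at 1.15 and 1.93 against 5.604 and 8.82 TPM. Cd4 was 1.04 and 1.25 against 0.539 and 0.277 TPM and did not pass with any of the 4 libraries left out, and Cd3g, a defining T cell gene, was listed at 0 in all 10. Among B-lineage markers Ighm, the heavy chain of IgM, was higher at 5.73 and 5.09 TPM, compared with 1.85 and 2.09 TPM in the saline libraries, and Blnk did not pass. None of the 13 tested skeletal muscle markers passed by limma (0 also before adjustment), with sums of 186 and 41.2 TPM against 25.6 and 202 TPM. Of 3 tested mammary and other epithelial markers the keratins Krt7 and Krt19 were lower, at 1.11 and 1.53 TPM against 8.11 and 5.37 TPM and at 3.78 and 2.73 TPM against 9.56 and 9.42 TPM, and Muc1 did not pass. Krt19 was also the only mesothelial marker tested. None of 3 blood and mast cell markers passed by limma (1 was higher before adjustment, and 1 passed without saline replicate 2), and Pf4, a platelet and macrophage gene, was 4.82 and 5.74 against 10.8 and 4.14 TPM. Whether any of these cell types had a part in the other differences was not tested.

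The 2 libraries labelled APRIL also differed from each other in a patterned way. The spread between them, as a root mean square SD over tested genes, was 0.358 on the log2 scale, against 0.238 between the saline libraries and 0.202 to 0.294 in the other 3 groups. All 20 NRF2 and metallothionein genes, all 37 respiratory chain genes, 22 of 23 adipocyte identity genes, 20 of 21 lipolysis genes and 20 of 21 fatty acid synthesis genes were higher in APRIL replicate 1 than in APRIL replicate 2. In contrast, 16 of 17 heat-shock genes and 18 of 23 NF-kB genes were lower in it. Of all tested genes 59.0% were higher in APRIL replicate 1. The saline libraries were split in other lists: all 18 macrophage markers were higher in saline replicate 1, with a median difference of 1.16, and all 13 skeletal muscle markers lower, with -2.56. For the metabolic lists the saline difference was smaller and of opposite sign, with 33 of 37 respiratory chain genes and 18 of 21 fatty acid synthesis genes lower in saline replicate 1. The median difference in adipocyte identity genes was -0.14 between the saline libraries and 1.22 between the libraries labelled APRIL. The counts of higher immediate-early, clock and p53 genes stayed within 20 to 22, 16 to 17 and 16 to 18 whichever of the 4 libraries was left out.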

How the data were processed

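RNA was sequenced in 10 libraries of 5 groups with 2 libraries each. The authors deposited TPM for 28987 Ensembl gene IDs per library, per the file headers. The authors used kallisto and the mm10 genome, per the submitters' processing notes; the version, the annotation release and the strand setting are not given in the sources used here. GENCODE M21, of the same assembly, named and placed 27475 of the IDs.

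All 10 libraries were fitted with 5 group means and no block in limma 3.58.1 (R 4.3.3) on log2(TPM + 1) with a mean-variance trend. That left 5 residual degrees of freedom, and p-values were adjusted by Benjamini-Hochberg over the 12713 autosomal genes with at least 1 TPM in 2 or more of the 4 libraries. Every adjusted p is from that fit, except that of the X-linked Kdm6a, which is from the fit over every chromosome. The code was tested on simulated data. All groups share 1 estimate of the spread. The members, the 49 gene lists described and the rules were chosen with earlier results of these data known. Genes were named by a rule: past 0.05, with 5 TPM or more on average and both libraries labelled APRIL beyond both saline ones, the 15 that rose most and the 15 that fell most; in every list, the 4 tested genes of lowest p or fewer; and the tested ligand, receptor, Hox and sex chromosome check genes; Nfkbia, Adipoq, Fabp4, Lep, Amz2, Cd3g, Tnfsf13 and the receptor genes are extra. Unnamed gene models, pseudogenes and some genes that the rule names are not reported here. Alternatives were other pseudocounts, filters, scalings and fits, and each library left out. Copies were searched with BLAST 2.17.0, and figures drawn with matplotlib 3.10.9 in Python 3.11.15. Without counts the depth is unknown, so no counting interval is given.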

Additional observations from a re-analysis of the deposited data

Results flagged for a closer look

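Genes of the X chromosome lay outside the autosomal comparison. Of 466 tested with the same filter and fit over every chromosome, 118 were higher and 172 lower in the libraries labelled APRIL than with saline, with a median log2 fold change of -0.20. They are set apart here because they are a signal in data that the comparison did not use. Of the tested autosomal genes 35.6% were higher and 25.6% lower, whereas more X-linked genes were lower than higher. Among the X-linked partners of the Y-linked genes, Ddx3x, Eif2s3x and Kdm5c were higher by log2 fold changes of 1.01, 0.73 and 0.34, in addition to Kdm6a at 2.21 (limma adjusted p = 2.58e-05).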

How the results depend on the processing

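Counting only genes beyond a 1.5-fold minimum lowered the number past the threshold from 7778 to 3246, 2018 higher and 1228 lower. With a pseudocount of 0.1 the genes at least 4-fold apart rose to 708 higher and 591 lower, from 434 and 276. Under every other alternative run, each count of all genes stayed within 1.5 times its value. The 4 libraries alone gave 6541 and median-ratio scaling 7971, 4065 higher and 3906 lower.

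With each of the 4 libraries left out in turn, the numbers past the threshold ran from 6101 to 7783, higher from 3672 to 4554 and lower from 2429 to 3573. Those at least 4-fold higher ran from 414 to 503 and lower from 279 to 349. Against the other 4 groups, with each library labelled APRIL left out, they were 8007 to 8372, 4331 to 4733 higher and 3274 to 4041 lower. The library that then stands alone in its group is assumed to vary like the rest.

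A block on the replicate number gave 8037 genes, 4637 higher and 3400 lower, and 8926 against the other 4 groups. It raised the lower macrophage markers from 0 to 5 and the higher matrix proteases and inhibitors from 4 to 7. The numbers were not used as a pairing: deviations of same-numbered libraries correlated at -0.142 to 0.0169 between the libraries labelled APRIL and the other groups, and at 0.326 to 0.557 among those groups.

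Among the named genes 187 passed; 148 of these passed with the same sign under every alternative run and 182 whichever library was left out. Pecam1, Cd4, Hoxd8, Decr1 and Ifit2 did not. In the count of 148, a gene that an alternative did not test, as when it averaged under 5 TPM, was taken as passing it. Sign changed in 11 genes, none of them past the threshold. With median-ratio scaling Hoxc13 was -0.073 and Hoxa6 -0.066. Over the sets with 1 of the 4 libraries left out, log2 fold changes ran from -0.13 to 0.14 for Hoxc13, -0.093 to 0.13 for Hoxa6, -0.19 to 0.13 for Hoxa4, -0.39 to 0.046 for Hoxa9 and -0.27 to 1.18 for Hoxa3. They ran from -0.24 to 2.87 for Tnnc2, -0.92 to 0.28 for Pf4, -0.12 to 1.498 for Acta1, -0.27 to 0.79 for Mbp, -0.12 to 0.53 for Blnk and -1.64 to 0.031 for Tnnt1. The cause of these changes was not tested.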

Other observations

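The called genes were spread over the genome. By autosome, the share of tested genes past the threshold ran from 56.8% on chromosome 7 to 65.7% on chromosome 18, and the median log2 fold change from 0.004 on chromosome 6 to 0.24 on chromosome 4.

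Other groups of genes moved in part. The background for these lists was 35.6% higher and 25.6% lower. Of 15 imprinted genes 4 were higher (26.7%) and 6 lower (40%). Impact, a regulator of translation, stood at 134 and 151 TPM in the APRIL-labelled pair against 20.99 and 22.8 TPM with saline, while Grb10, a growth inhibitor, and Ndn, which encodes necdin, were lower, with log2 fold changes of -1.30 and -1.81. With 1 library left out the higher count was 2 without saline replicate 1 and 1 without APRIL replicate 1 and also without saline replicate 2. Of 17 glucocorticoid targets 9 were higher and 3 lower, with Klf9, a zinc-finger factor, at 109.9 and 94.996 TPM, against 25.95 and 25.5 TPM with saline and the co-chaperone Fkbp5 higher by a log2 fold change of 0.72; the list shares Per1 and Dusp1 with lists described above. Of 14 genes of sex steroid receptors, enzymes and targets 4 were higher and 5 lower, the latter 3 without saline replicate 1. With no library left out, that list had 28.6% higher, below the background, and 35.7% lower. Greb1, an oestrogen target, was 13.7 and 16.6 TPM against 2.997 and 2.91 TPM with saline. Of 13 replication-dependent histone genes 4 were higher (30.8%) and 2 lower (15.4%), both below the background. Their median of 0.59 was -0.19 without APRIL replicate 1 and 0.08 without saline replicate 1. Among the lower was the linker histone Hist1h1c, with a log2 fold change of -1.87. Of 7 chondrocyte and osteoblast markers 3 were lower and 2 higher; Spp1, the matrix protein osteopontin, stood at 134 and 95.99 TPM, compared with 837 and 554 TPM in the saline libraries. Of 4 Schwann cell and neuron markers the myelin gene Pmp22 and the tubulin Tubb3 were lower, with log2 fold changes of -1.29 and -2.95, and 1 marker was higher without APRIL replicate 2. Acp5, an acid phosphatase of osteoclasts and macrophages, was lower, with a log2 fold change of -3.69.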
